A study of Homo sapiens with 6 samples.

Results

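The 9 genes described here encode the enzymes that write, copy and remove methyl groups on cytosine in human DNA, with the cofactors that bring them to it. They are the methyltransferase genes DNMT1, DNMT3A and DNMT3B, the maintenance cofactor genes UHRF1 and HELLS, the dioxygenase genes TET1, TET2 and TET3, and the DNA glycosylase gene TDG. They were chosen by symbol, and each symbol matched 1 gene among the 58735 of the count table, and all 9 passed the filter on low counts that left 18751 tested genes.

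RNA was sequenced from 3 samples of PANC1OR and 3 samples of PANC1, 1 library per sample. The sample titles number them and do not say whether they were separate cultures. PANC1 is an established human cell line of pancreatic ductal carcinoma, grown here without the drug. PANC1OR is a subline of it, selected over passages with rising amounts of the platinum drug oxaliplatin, which crosslinks bases of DNA, and described by the submitters as stable once the drug was withdrawn. Both lines were kept in DMEM with 10% FBS. PANC1OR is a single resistant line, so the p-values rest on the spread among samples of 1 resistant and 1 parental line and not among resistant lines. The labels do not say whether oxaliplatin was in the medium when cells were lysed. The comparison asks which transcripts differ in level between the resistant and the untreated parental line. Levels are in CPM, the read counts scaled to a common library total. In RNA from whole cultures, a change in the share of cells that use a gene and a change in the RNA per cell cannot be told apart.

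Methyl groups sit mostly on cytosines that are followed by guanine (CpG). DNMT3A and DNMT3B place them on DNA that carries none, whereas DNMT1, guided by UHRF1 to newly replicated DNA, copies them onto the new strand, and the remodeller HELLS opens chromatin for this work. TET enzymes oxidise the methyl group, and TDG excises some of the oxidised forms so that base excision repair can restore plain cytosine. In many tumours, overall loss of methylation goes together with gain at the CpG islands of some promoters. Only transcript levels were measured here, not methylation or enzyme activity.

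DNMT3B was the 1 gene of the 9 whose level changed by the test on all 6 libraries, 3.86-fold higher in PANC1OR. The other 8 genes did not pass it, with log2 fold changes between -0.44 for TDG and 0.50 for DNMT3A, and DESeq2 called none of them either. At an unadjusted p under 0.05 in edgeR, DNMT3A joined DNMT3B, and none of the 9 was lower. How many of all tested genes passed that unadjusted threshold was not counted. Among all tested genes, 17.8% passed the test on all 6 libraries (edgeR's quasi-likelihood F test, Benjamini-Hochberg adjusted p under 0.05). The shares were 10.3% higher and 7.50% lower in PANC1OR, and the median log2 fold change was 0.04. The libraries of the lines did not overlap for 4 of the 9 genes (DNMT3B, DNMT3A and TET3 higher, TDG lower in PANC1OR), against 36.5% of all tested genes (18.9% higher, 17.6% lower).

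**Figure D1:**
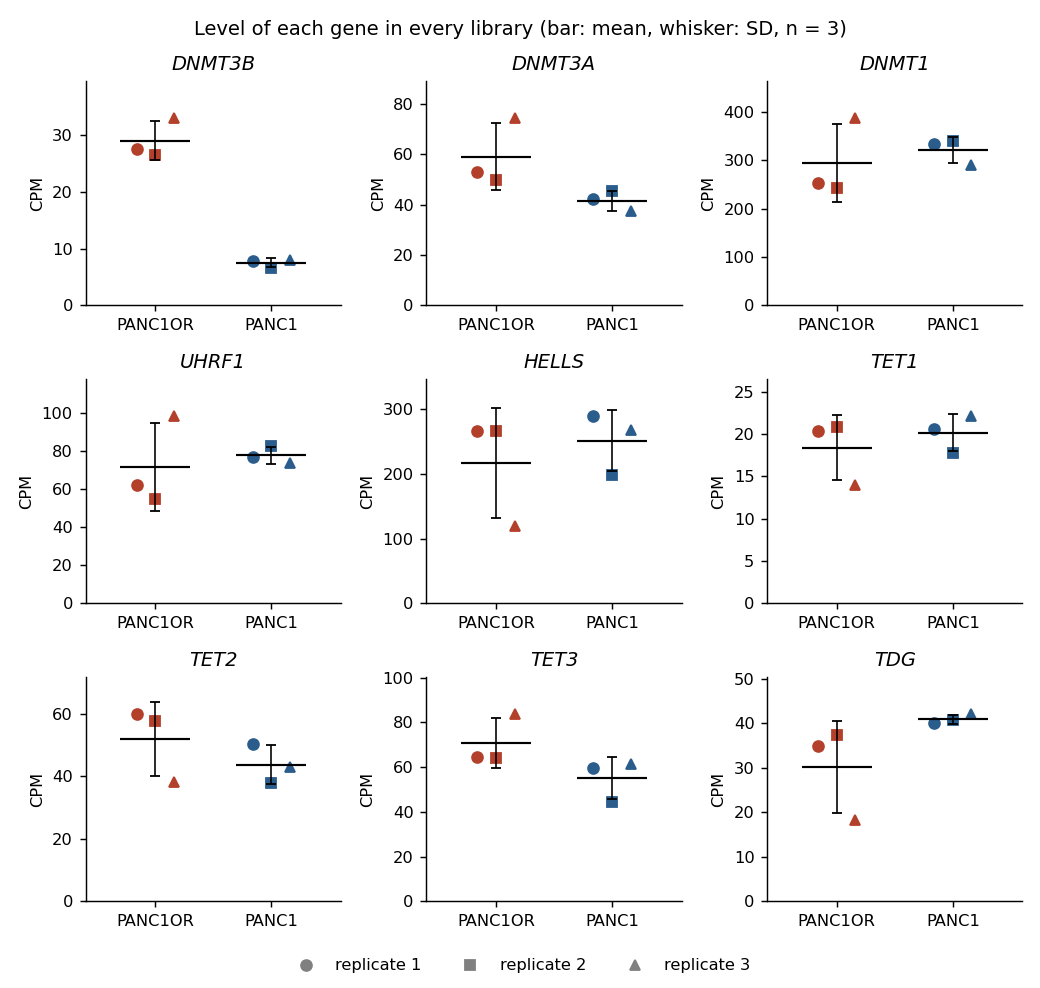
Level of each of the 9 genes in CPM (vertical axis) in the 3 PANC1OR libraries (red, left) and the 3 PANC1 libraries (blue, right), with a bar for the mean and a whisker for the SD. DNMT3B was at 26.5 to 32.9 CPM in PANC1OR and at 6.58 to 8.07 CPM in PANC1, and replicate 3 of PANC1OR (triangle) lies apart from the other PANC1OR libraries in all 9 panels.

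PANC1OR replicate 3 stood apart from the other libraries in a way that followed base composition. Its log2 levels of TET1, TET2, HELLS and TDG, whose transcripts have under 45% GC, were 0.55 to 1.17 below the mean of PANC1OR replicates 1 and 2. Its levels of DNMT1, DNMT3A, DNMT3B, TET3 and UHRF1, between 53% and 56% GC, were 0.28 to 0.75 above that mean. All tested genes in the same 2 ranges of GC content had medians of -0.72 and 0.60. PANC1 replicate 2 deviated less, with medians of -0.18 and 0.18 in these ranges. Results on the 9 genes are therefore also given without PANC1OR replicate 3, where 44.1% of 19650 tested genes were called, or with offsets that remove the trend with GC content in each library, where 39.0% were called. A fit with GC offsets and without PANC1OR replicate 3 called DNMT3B and DNMT3A higher and TDG lower, against 41.9% of all tested genes (20.9% higher, 21.0% lower). Without both PANC1OR replicate 3 and PANC1 replicate 2, DNMT3B, DNMT3A and TET2 were called higher and DNMT1, UHRF1 and TDG lower, against 58.5% of all tested genes (29.0% higher, 29.5% lower). Library totals ran from 10199268 to 26394388 reads. Of the markers listed for a pancreatic duct carcinoma line, 7 of 7 were detected in both lines, with summed levels of 2825 to 2887 CPM in PANC1OR and 3836 to 4733 CPM in PANC1. VIM was the largest part of these sums, at 1521 to 2179.8 CPM in PANC1OR and 2727 to 2807 CPM in PANC1. KRT19 (-3.81) and SOX9 (-0.67) fell in PANC1OR in log2 fold change, but SOX9 lost the call without any library other than PANC1OR replicate 3 (edgeR adjusted p = 0.115 to 0.182). KRT7, with 88 reads in PANC1OR and 28 in PANC1, was at 1.32 ± 0.64 (edgeR adjusted p = 0.213). With GC offsets KRT7 was called higher (edgeR adjusted p = 0.0313) and 4 of the 7 markers lower. The 12 markers of other cell types summed to 2.50 to 3.55 CPM in PANC1OR and 1.18 to 2.14 CPM in PANC1. CD3E, GCG and INS had 0 reads in both lines, and CPA1, LUM and PRSS1 also had 0 reads in PANC1. The most reads came from CD68 (76 in PANC1OR and 25 in PANC1), PDGFRB (56 and 23) and PTPRC (17 and 2). VWF (1 and 7) and PECAM1 (6 and 9) had more reads in PANC1. Of the 12, 2 were tested and 0 called over 6 libraries. CD68 was at 1.35 ± 0.44 (edgeR adjusted p = 0.0726) and was called higher with GC offsets (edgeR adjusted p = 0.0190).

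**Figure D2:**
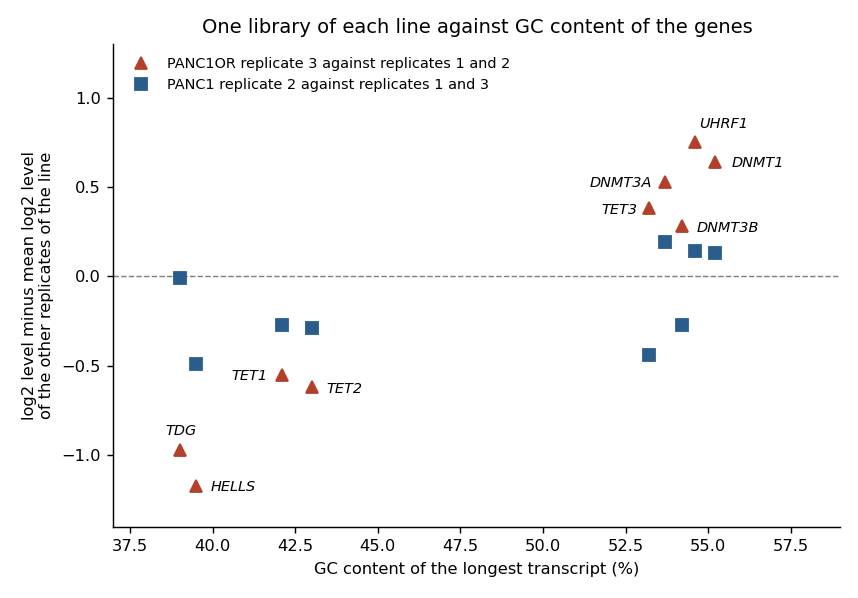
Deviation of PANC1OR replicate 3 (triangles) from PANC1OR replicates 1 and 2, and of PANC1 replicate 2 (squares) from PANC1 replicates 1 and 3, in log2 level (vertical axis) against the GC content of the longest transcript in percent (horizontal axis), 1 point per gene. PANC1OR replicate 3 was lower by 0.55 to 1.17 for the 4 genes of low GC content and higher by 0.28 to 0.75 for the other 5.

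DNMT3B, which methylates CpG islands, gene bodies and the repeats beside centromeres, lies on the plus strand at chr20:32762385-32809359 (GRCh38) and overlaps no other annotated gene. Its level was 27.6, 26.5 and 32.9 CPM in PANC1OR replicates 1 to 3, against 7.84, 6.58 and 8.07 CPM in PANC1 replicates 1 to 3, from 739, 425 and 399 reads in PANC1OR and 126, 63 and 132 reads in PANC1. Every PANC1OR library lay above every PANC1 library. The means were 29.0 ± 3.43 CPM in PANC1OR and 7.50 ± 0.804 CPM in PANC1 (SD, n = 3 each), a log2 fold change of 1.95 ± 0.21 (SE, 95% interval 1.45 to 2.44, edgeR adjusted p = 0.000579). It ranked 841st by log2 fold change and 533rd by p-value among the 18751 tested genes. Without PANC1OR replicate 3 the log2 fold change was 1.83 ± 0.14 (edgeR adjusted p = 2.97e-05), and with GC offsets it was 1.94 ± 0.16 (edgeR adjusted p = 1.72e-05). DNMT3B was called in all 16 alternative fits, with log2 fold changes of 1.75 to 2.04. Over 6 libraries it was just under the fold cutoff in the series design text, an absolute log2 fold change above 2, and it passed that cutoff without PANC1OR replicate 2 (2.00 when rounded) and with GC offsets without PANC1OR replicate 3 (2.04). Both cutoffs of that text together, the fold and a false discovery rate under 0.01, were passed over 6 libraries by 1172 of the tested genes (6.25%).

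DNMT3A, the other de novo methyltransferase, lies at chr2:25227855-25342590 (minus strand). Its level was 53.0, 49.8 and 74.1 CPM in PANC1OR, against 42.0, 45.3 and 37.4 CPM in PANC1. The lines did not overlap, but PANC1OR replicate 2 and PANC1 replicate 2 were 49.8 and 45.3 CPM. The log2 fold change was 0.50 ± 0.22 (95% interval 0.00 to 1.01), which did not pass adjustment over all genes (edgeR adjusted p = 0.165). Without PANC1OR replicate 3 it was 0.30 ± 0.12 (edgeR adjusted p = 0.0809). With GC offsets the same value of 0.50 had an SE of 0.10 and was called (edgeR adjusted p = 0.00372), in a fit that called 19.9% of all tested genes higher. DNMT3L, the catalytically inactive partner of the de novo enzymes in germ cells, had 1 read in PANC1OR and 3 reads in PANC1 and did not pass the filter on low counts.

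Per length, DNMT3B reached the level of DNMT3A in PANC1OR and not in PANC1. The ratio of DNMT3B to DNMT3A in RPKM (CPM divided by exon length in kilobases) was 1.04, 1.07 and 0.891 in PANC1OR, against 0.374, 0.291 and 0.433 in PANC1. The lowest PANC1OR ratio was thus above the highest PANC1 ratio, with means of 1.00 ± 0.0962 in PANC1OR and 0.366 ± 0.0714 in PANC1 (SD, n = 3 each). These ratios are a description with no test. With GC offsets the means were 1.00 ± 0.113 in PANC1OR and 0.366 ± 0.0730 in PANC1.

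**Figure D3:**
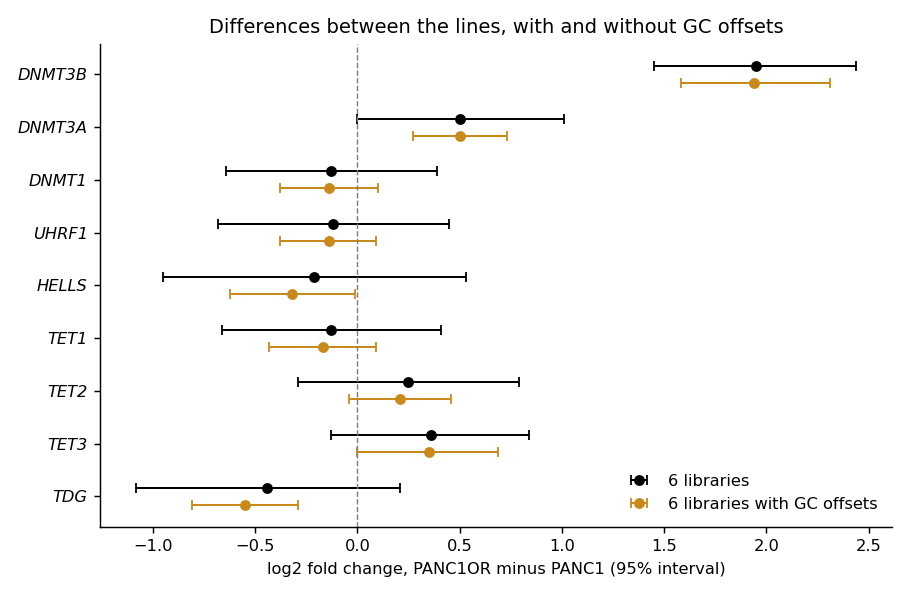
Log2 fold change of each gene, PANC1OR minus PANC1 (horizontal axis), with its 95% interval, from the 6 libraries as counted (black) and with GC offsets (orange). DNMT3B lies at 1.95 and 1.94, apart from 0 in both, and the interval of TDG, -1.08 to 0.21 as counted, is -0.81 to -0.29 with the offsets.

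The 3 maintenance genes were the most abundant of the 9 per length, and none of them differed between the lines by the test on 6 libraries. DNMT1 (chr19:10133342-10231286, minus strand), which copies methylation after replication, was at 253, 243 and 386 CPM in PANC1OR, against 333, 339.7 and 289.6 CPM in PANC1. PANC1OR replicates 1 and 2 were below all PANC1 libraries and PANC1OR replicate 3 above them. Over 6 libraries, the log2 fold change was -0.13 ± 0.22 (95% interval -0.64 to 0.39, edgeR adjusted p = 0.765). Without PANC1OR replicate 3, DNMT1 was called lower, at -0.38 ± 0.12 (edgeR adjusted p = 0.0336), in a fit that called 22.0% of all tested genes lower. With GC offsets it was -0.14 ± 0.11 (edgeR adjusted p = 0.319). S1PR2, which overlaps DNMT1 on the same strand, had 306 reads in PANC1OR and 100 reads in PANC1, against 15350 reads of DNMT1 in PANC1OR and 13339 in PANC1.

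UHRF1 (chr19:4903080-4962154, plus strand), which reads hemimethylated CpGs behind the fork and recruits DNMT1, showed the same pattern. It was at 62.3, 54.8 and 98.3 CPM in PANC1OR, against 76.9, 82.8 and 73.6 CPM in PANC1. Again PANC1OR replicates 1 and 2 were below and replicate 3 above every PANC1 library. The log2 fold change was -0.12 ± 0.25 (95% interval -0.68 to 0.45, edgeR adjusted p = 0.805) over 6 libraries, -0.42 ± 0.12 (edgeR adjusted p = 0.0203) without PANC1OR replicate 3, and -0.14 ± 0.10 (edgeR adjusted p = 0.308) with GC offsets. The per-length ratio of UHRF1 to DNMT1 was 0.735, 0.675 and 0.761 in PANC1OR, against 0.690, 0.729 and 0.759 in PANC1. The lines overlapped in this ratio, and the means of 0.723 ± 0.0443 in PANC1OR and 0.726 ± 0.0349 in PANC1 (SD, n = 3 each) differed by less than either SD. The size of the ratio depends on the length used, with means of 0.327 in PANC1OR and 0.329 in PANC1 by canonical transcript.

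HELLS (chr10:94545329-94613905, plus strand), the chromatin remodeller needed for methylation of repeats, was at 266, 267 and 119 CPM in PANC1OR, against 289, 198 and 268 CPM in PANC1. The low PANC1OR value came from replicate 3 and the low PANC1 value from replicate 2, and the lines overlapped. Its log2 fold change was -0.21 ± 0.32 (95% interval -0.95 to 0.53, edgeR adjusted p = 0.723). It was 0.07 ± 0.17 without PANC1OR replicate 3 (edgeR adjusted p = 0.759), and -0.32 ± 0.13 with GC offsets (edgeR adjusted p = 0.0923).

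The promoters of these 3 genes shared a feature that the other 6 lacked in the same window. E2F factors, which drive genes of DNA replication, bind TTTCCCGC, TTTCGCGC, TTTGCCGC or TTTGGCGC, and these 4 words were searched on both strands of the 300 bases around the canonical start. DNMT1 and UHRF1 held 1 match each and HELLS held 2, against a match in 4.4% of the 20033 protein-coding windows. A match is a description of the letters and not of binding. The sites are shown with the word in capitals in 30 bases of the strand of the gene.
DNMT1, chr19:10194937-10194966, minus strand: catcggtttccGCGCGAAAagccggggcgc
UHRF1, chr19:4909476-4909505, plus strand: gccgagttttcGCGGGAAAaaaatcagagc
HELLS, chr10:94545701-94545730, plus strand: aaccgcaagctGCGCCAAAtctcgcgcagc
HELLS, chr10:94545769-94545798, plus strand: gatgacaggatTTTCCCGCgaaggagaagc

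Genes of DNA replication and division are set beside the maintenance genes because UHRF1 and DNMT1 levels follow the cell cycle. Of 24 such genes, 3 fell in PANC1OR and none rose, against 7.50% lower and 10.3% higher among all tested genes. The median log2 fold change of the 24 was -0.29. At an unadjusted p under 0.05 in edgeR, 6 were lower and 0 higher. The share of all tested genes at that threshold was not counted. DESeq2 called 4 lower and 0 higher, among 4128 called genes. Cyclin B1 (CCNB1) had a log2 fold change of -0.79 ± 0.17 (edgeR adjusted p = 0.0153), the replication licensing factor CDC6 -0.75 ± 0.18 (edgeR adjusted p = 0.0218) and the helicase subunit MCM4 -0.53 ± 0.15 (edgeR adjusted p = 0.0493). None of these 3 calls stood in every fit without 1 library. CCNB1 lost it without PANC1OR replicate 1 or 2 or PANC1 replicate 3 (edgeR adjusted p = 0.0635 to 0.0693), and CDC6 and MCM4 lost it without any library other than PANC1OR replicate 3 (0.0686 to 0.193). MCM3, another helicase subunit, was at -0.57 ± 0.18 (edgeR adjusted p = 0.0722), and the proliferation antigen MKI67 was at -0.15 ± 0.18 (edgeR adjusted p = 0.654). Without PANC1OR replicate 3, 12 of the 24 were called lower and 3 higher, in a fit that called 22.0% of all tested genes lower and 22.1% higher. The part of these genes in the DNMT1 and UHRF1 values was not tested.

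None of the 3 TET genes differed by the test on 6 libraries, and they did not share a direction. TET1 (chr10:68560337-68694487, plus strand), abundant in embryonic stem cells, was at 20.4, 20.8 and 14.0 CPM in PANC1OR, against 20.6, 17.8 and 22.1 CPM in PANC1. PANC1OR replicate 3 was the lowest of the 6 libraries, and PANC1OR replicates 1 and 2 lay within the PANC1 range. The log2 fold change was -0.13 ± 0.23 (95% interval -0.66 to 0.41, edgeR adjusted p = 0.767), and 0.02 ± 0.14 without that library (edgeR adjusted p = 0.941).

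TET2 (chr4:105145875-105279816, plus strand), often mutated in blood cancers, was at 59.8, 57.6 and 38.3 CPM in PANC1OR, against 50.2, 38.0 and 43.0 CPM in PANC1. PANC1OR replicates 1 and 2 were above all PANC1 libraries and replicate 3 was among them. Over 6 libraries, its log2 fold change was 0.25 ± 0.23 (95% interval -0.29 to 0.79, edgeR adjusted p = 0.544). It was called without PANC1OR replicate 3, at 0.41 ± 0.14 (edgeR adjusted p = 0.0398), where 22.1% of all tested genes were called higher, and not with GC offsets, at 0.21 ± 0.11 (edgeR adjusted p = 0.170). The antisense gene TET2-AS1 had 62 reads in PANC1OR and 34 reads in PANC1, against 2987 reads of TET2 in PANC1OR and 1873 in PANC1.

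TET3 (chr2:73984910-74108176, plus strand), known for oxidising methylated cytosine in the zygote, was at 64.7, 64.0 and 83.6 CPM in PANC1OR, against 59.7, 44.6 and 61.2 CPM in PANC1. The lines did not overlap, with 64.0 CPM as the lowest PANC1OR and 61.2 CPM as the highest PANC1 value. The log2 fold change was 0.36 ± 0.21 (95% interval -0.13 to 0.84, edgeR adjusted p = 0.312), and 0.35 ± 0.15 with GC offsets (edgeR adjusted p = 0.104).

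TDG (chr12:103965822-103988874, plus strand) encodes the glycosylase that removes some oxidised forms of methylcytosine, and thymine from mismatches. It was at 34.8, 37.3 and 18.3 CPM in PANC1OR, against 40.0, 40.7 and 42.0 CPM in PANC1. Every PANC1OR library was below every PANC1 library, and replicate 3 was far below the other PANC1OR libraries. Between the lines, the log2 fold change was -0.44 ± 0.28 (95% interval -1.08 to 0.21, edgeR adjusted p = 0.351). Without PANC1OR replicate 3 it was -0.20 ± 0.11 (edgeR adjusted p = 0.184). With GC offsets TDG was called lower, at -0.55 ± 0.12 (edgeR adjusted p = 0.00479), in a fit that called 19.1% of all tested genes lower. Its pseudogene TDGP1 had 2 reads in PANC1OR and 1 read in PANC1.

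Set against the methyltransferases per length, the TET genes overlapped between the lines. The ratio of the summed RPKM of TET1, TET2 and TET3 to that of DNMT1, DNMT3A and DNMT3B was 0.442, 0.456 and 0.290 in PANC1OR, against 0.379, 0.289 and 0.425 in PANC1. The lowest value of each line came from the library that deviated with GC content, PANC1OR replicate 3 and PANC1 replicate 2. With GC offsets the means were 0.381 ± 0.00779 in PANC1OR and 0.364 ± 0.0478 in PANC1 (SD, n = 3 each), a description with no test. By canonical transcript and without offsets they were 0.201 ± 0.0531 in PANC1OR and 0.169 ± 0.0313 in PANC1.

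The order of the 9 genes by mean RPKM was DNMT1, HELLS, UHRF1, TDG, TET3, DNMT3A, DNMT3B, TET2 and TET1 in PANC1OR, and DNMT1, HELLS, UHRF1, TDG, TET3, DNMT3A, TET2, TET1 and DNMT3B in PANC1. In PANC1OR the levels ran from 19.1 ± 5.19 RPKM for DNMT1 to 1.92 ± 0.396 RPKM for TET1, and in PANC1 from 20.9 ± 1.77 RPKM for DNMT1 to 1.09 ± 0.117 RPKM for DNMT3B. DNMT3B, at 4.22 ± 0.499 RPKM in PANC1OR, took place 7, and it was last in PANC1. Among neighbours in the order, DNMT1, HELLS and UHRF1 overlapped one after the other in both lines, as did TDG, TET3, DNMT3A and DNMT3B in PANC1OR and DNMT3A and TET2 in PANC1. With the length of the longest or of the canonical transcript in place of all exons, DNMT3B took place 5 in PANC1OR and stayed last in PANC1, and HELLS and DNMT1 exchanged places in 3 of 4 such orders.

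Of 32 tested genes within 1 Mb of DNMT3B, 4 rose and 3 fell in PANC1OR, counts near the 10.3% and 7.50% of all tested genes called higher and lower, and their median log2 fold change was 0.41. The nearest tested gene, COMMD7, which starts 18.9 kb before DNMT3B and encodes a COMM domain protein, was at 25.6, 23.0 and 29.1 CPM in PANC1OR, against 6.91, 10.3 and 6.36 CPM in PANC1. Its lines did not overlap, and its log2 fold change was 1.72 ± 0.26 (edgeR adjusted p = 0.00258, at most 0.0244 without any 1 library). On the other side MAPRE1, a protein of microtubule ends, was at 0.26 ± 0.17 (edgeR adjusted p = 0.342). Of the other called neighbours, ASXL1 (0.94), TPX2 (0.66) and KIF3B (0.54) were higher and CCM2L (-4.60), TSPY26P (-1.82) and EFCAB8 (-1.15) lower in PANC1OR, in log2 fold change. ASXL1 lost the call without PANC1 replicate 1 (edgeR adjusted p = 0.0555), and TPX2 without PANC1OR replicate 1 or 2 or PANC1 replicate 1 or 3 (0.147 to 0.201). KIF3B and EFCAB8 lost it without any library other than PANC1OR replicate 3 (0.0536 to 0.228). These neighbours were named after their values were seen.

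**Figure D4:**
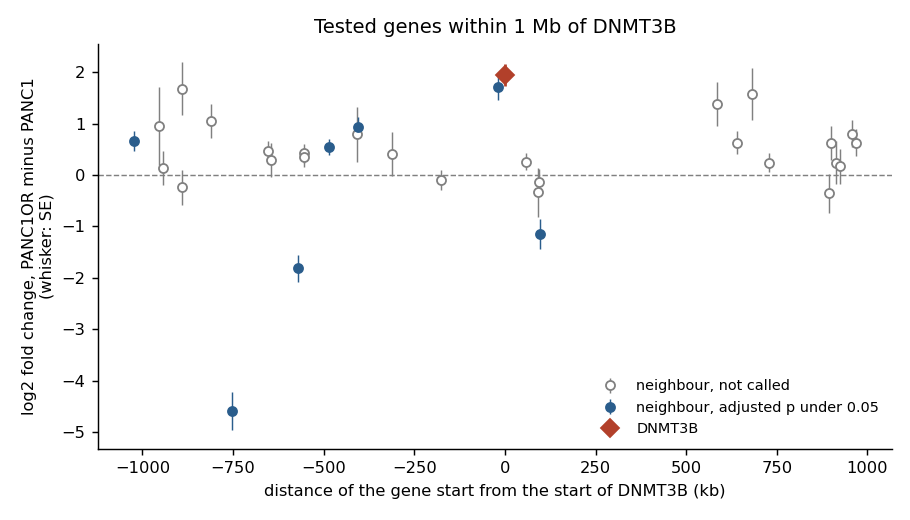
Log2 fold change, PANC1OR minus PANC1 (vertical axis, whiskers SE), of the tested genes within 1 Mb of DNMT3B against the distance of their start from that of DNMT3B in kb (horizontal axis). COMMD7 at 18.9 kb before the start lies beside DNMT3B at 1.72, and MAPRE1 on the other side lies at 0.26.

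The genes whose pattern over the 6 libraries was most like that of DNMT3B were MOCOS and SLCO3A1, out of 11519 genes that averaged 5 CPM or more. MOCOS, the sulfurase that activates molybdenum cofactor enzymes, was at 17.5, 16.7 and 22.9 CPM in PANC1OR, against 3.42, 2.61 and 3.49 CPM in PANC1. SLCO3A1, an organic anion transporter, was at 29.7, 29.0 and 38.7 CPM in PANC1OR, against 2.80, 2.09 and 3.06 CPM in PANC1. Pearson's r with DNMT3B in log2 CPM was 0.9999 and 0.9996 over 6 libraries, as a description with no test. The 6 points fall into the 2 lines, and 138 of the compared genes had r above 0.99.

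All partners of the writers that changed by the test on 6 libraries were lower in PANC1OR. Of 20 genes listed, 18 were tested, 5 fell and none rose, against 7.50% lower and 10.3% higher among all tested genes. The median log2 fold change of the partners was -0.28. At an unadjusted p under 0.05 in edgeR, 6 were lower and 0 higher, with no share of all tested genes counted there. DESeq2 also called 5 lower and 0 higher, among 4128 called genes. CDCA7, which recruits HELLS to chromatin, was at 57.3, 60.1 and 48.7 CPM in PANC1OR, against 106, 101 and 115 CPM in PANC1, with no overlap and a log2 fold change of -0.96 ± 0.18 (edgeR adjusted p = 0.00710). That call was lost only without PANC1 replicate 3 (edgeR adjusted p = 0.0538). The deacetylase HDAC1 (-0.75), the histone methyltransferase NSD1 (-0.69), the UHRF1-binding deubiquitinase USP7 (-0.63) and CDCA7L (-0.61) also fell, with adjusted p-values of 0.0303, 0.0287, 0.0465 and 0.0419. HDAC1, USP7 and CDCA7L lost the call without any library other than PANC1OR replicate 3 (0.0758 to 0.173), and NSD1 did without PANC1OR replicate 1 or 2 or PANC1 replicate 1 or 3 (0.106 to 0.145). Without PANC1OR replicate 3, 10 partners were called, and with GC offsets 9, all of them lower. Those fits called 22.0% and 19.1% of all tested genes lower. Without both PANC1 replicate 2 and PANC1OR replicate 3, 11 partners were called lower and 1 higher, against 29.5% and 29.0% of all tested genes.

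DNMT3B, ZBTB24, CDCA7 and HELLS are the genes whose recessive mutations cause the immunodeficiency, centromeric instability and facial anomalies (ICF) syndrome, in which repeats beside centromeres lose methylation. They did not share a direction. DNMT3B was higher and CDCA7 lower in PANC1OR, HELLS did not pass the test, and ZBTB24 was at 74.9, 71.9 and 48.8 CPM in PANC1OR, against 66.1, 65.5 and 64.9 CPM in PANC1, a log2 fold change of -0.01 ± 0.21 (edgeR adjusted p = 0.992).

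Of 10 genes of the methyl-CpG-binding domain family and of zinc finger proteins that bind methylated CpG, all tested, 2 rose in PANC1OR and none fell, in edgeR and in DESeq2. Of all tested genes, edgeR called 10.3% higher and 7.50% lower. The median log2 fold change of the 10 was 0.20. At an unadjusted p under 0.05 in edgeR, 3 were higher and 1 lower, with no share of all tested genes counted there. DESeq2 called 4128 genes in all. ZBTB38, a zinc finger protein that binds methylated DNA, had a log2 fold change of 0.74 ± 0.19 (edgeR adjusted p = 0.0338), and MBD6, a member of the domain family not known to bind methylated CpG itself, 1.15 ± 0.32 (edgeR adjusted p = 0.0414). ZBTB38 lost the call without any library other than PANC1OR replicate 3 (edgeR adjusted p = 0.103 to 0.158), and MBD6 lost it without any 1 PANC1 library (0.134 to 0.156). MBD6 was called at a log2 fold change of 0.67 without PANC1OR replicate 3. Its level was 71.8, 61.9 and 143 CPM in PANC1OR, against 42.5, 41.5 and 40.9 CPM in PANC1, and its transcript has 62.2% GC. ZBTB4, another of the zinc finger proteins, was at 0.59 ± 0.23 (edgeR adjusted p = 0.129). With GC offsets 4 of the 10 were called higher and 1 lower, in a fit that called 19.9% of all tested genes higher and 19.1% lower.

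A list of 20 genes combines CXXC proteins and other candidate partners of TET enzymes with genes of metabolism around their cofactor alpha-ketoglutarate, some of which have no direct tie to the enzymes. Of these 20 genes, 6 fell in PANC1OR and none rose, against 7.50% lower and 10.3% higher among all tested genes. The median log2 fold change of the 20 was -0.22. Their counts in DESeq2, which called 4128 genes in all, were also 6 and 0. So were those at an unadjusted p under 0.05 in edgeR, where the share of all tested genes was not counted. CXXC4, which binds unmethylated CpG and in mouse cells lowers TET2 protein, was at 0.150, 0.0624 and 0 CPM in PANC1OR (5 reads in all), against 3.05, 2.82 and 2.08 CPM in PANC1 (110 reads), a log2 fold change of -4.79 ± 0.55 (edgeR adjusted p = 0.000708). Its relative CXXC5 was at 16.9, 16.8 and 25.2 CPM in PANC1OR, against 63.8, 79.9 and 60.8 CPM in PANC1, a log2 fold change of -1.80 ± 0.24 (edgeR adjusted p = 0.00159). Neither gene overlapped between the lines.

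IDH3A and IDH2, which make alpha-ketoglutarate in mitochondria, were among the 6. IDH3A was at 27.9, 26.5 and 28.0 CPM in PANC1OR, against 54.6, 62.4 and 54.2 CPM in PANC1 (log2 fold change -1.05 ± 0.18, edgeR adjusted p = 0.00493). IDH2 was at 27.2, 25.4 and 52.5 CPM in PANC1OR, against 84.6, 151 and 105 CPM in PANC1 (log2 fold change -1.70 ± 0.35, edgeR adjusted p = 0.0113), and lost its call only without PANC1 replicate 2 (edgeR adjusted p = 0.0550). IDH1, the cytosolic enzyme, did not pass the test (0.20, edgeR adjusted p = 0.590), nor did IDH3B (-0.07, 0.895) or IDH3G (-0.31, 0.599). SMAD3, a transcription factor of TGF-beta signalling (-0.81, 0.0176), and VDAC1, a channel of the outer mitochondrial membrane (-0.79, 0.0179), also fell. SMAD3 lost the call without PANC1OR replicate 1 or 2 or PANC1 replicate 1 or 3 (0.0792 to 0.0926), and VDAC1 without any library other than PANC1OR replicate 3 (0.0558 to 0.0814).

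A list of 16 genes holds base excision repair genes, among them other DNA glycosylases, and GADD45 genes, and not all of them act after TDG. Of these, 15 were tested, 1 rose and 2 fell, with a median log2 fold change of 0.13. Of all tested genes, 10.3% were called higher and 7.50% lower. The median of the listed genes was -0.23 without PANC1OR replicate 3, with 3 called higher and 7 lower. That fit called 22.1% of all tested genes higher and 22.0% lower. UNG, the uracil DNA glycosylase, was at 41.3, 42.2 and 53.0 CPM in PANC1OR, against 103, 131 and 110.0 CPM in PANC1, with no overlap (log2 fold change -1.33 ± 0.20, edgeR adjusted p = 0.00250). The ligase LIG3 fell (-0.71, edgeR adjusted p = 0.0295) and the stress gene GADD45A, proposed to aid demethylation, rose (1.24, edgeR adjusted p = 0.0295). LIG3 lost the call without any library other than PANC1OR replicate 3 (0.0683 to 0.146), and GADD45A without PANC1 replicate 1 (0.128) or 3 (0.145). The gap-filling polymerase POLB was at 0.61 ± 0.23 (edgeR adjusted p = 0.118).

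The methyl donor S-adenosylmethionine comes from the methionine and folate cycles. Of 20 listed genes, 16 were tested, 2 rose and 3 fell in PANC1OR, with a median log2 fold change of -0.25. Of all tested genes, 10.3% were called higher and 7.50% lower. AHCYL1, a relative of the enzyme that hydrolyses S-adenosylhomocysteine, was at 151, 150.1 and 133 CPM in PANC1OR, against 315, 319 and 311 CPM in PANC1 (log2 fold change -1.12 ± 0.16, edgeR adjusted p = 0.00215). CBS, which diverts homocysteine to cysteine, rose by a log2 fold change of 1.29 (edgeR adjusted p = 0.0134) and mitochondrial SHMT2 by 1.24 (edgeR adjusted p = 0.0274). MTRR, which keeps methionine synthase active, fell (-0.67, edgeR adjusted p = 0.0416). CBS lost the call without PANC1 replicate 1 (0.0768) or 2 (0.0578), SHMT2 without PANC1 replicate 1 or 3 (0.127 and 0.129), and MTRR without any library other than PANC1OR replicate 3 (0.0943 to 0.155).

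**Figure D5:**
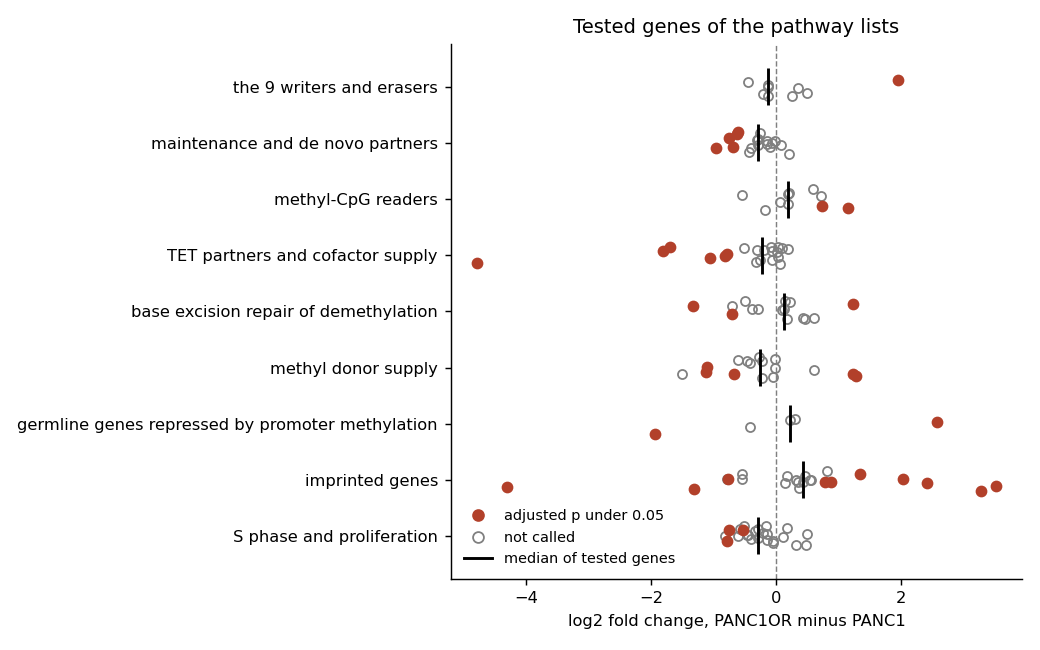
Log2 fold change, PANC1OR minus PANC1 (horizontal axis), of each tested gene in the 9 writers and erasers and in 8 lists of related genes (vertical axis), filled where the adjusted p was under 0.05, with a black line at the median. DNMT3B at 1.95 is the 1 filled point among the 9, and the partners and the TET list have filled points at negative values only.

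Genes held silent by methylation of their own promoters or of 1 parental copy are readouts often set beside the writers. Of 20 germline genes of the first kind, 15 did not pass the filter on low counts, with at most 11 reads in PANC1OR and 8 reads in PANC1, and 5 of these (BRDT, DAZL, PIWIL1, SYCP1 and TUBA3C) had 0 reads in both lines. A count of 0 in these libraries limits transcript level only, and not methylation. Of the 5 tested, 1 rose and 1 fell, against 10.3% higher and 7.50% lower among all tested genes. PIWIL2, an Argonaute protein of the germline, was at 1.91, 1.44 and 2.31 CPM in PANC1OR, against 0.311, 0.209 and 0.367 CPM in PANC1, from 102 reads in PANC1OR and 13 in PANC1 (log2 fold change 2.58 ± 0.39, edgeR adjusted p = 0.00270). TEX15, a protein of germline silencing, was at 1.57, 1.31 and 0.165 CPM in PANC1OR, against 4.67, 3.76 and 4.04 CPM in PANC1 (log2 fold change -1.94 ± 0.54, edgeR adjusted p = 0.0404). TEX15 lost the call without PANC1OR replicate 2 (0.0668) or without any 1 PANC1 library (0.0994 to 0.133), and PIWIL2 kept it in all 6 such fits. STK31 (-0.41, edgeR adjusted p = 0.432), DDX43 (0.31, edgeR adjusted p = 0.525) and SYCP3 (0.22, edgeR adjusted p = 0.740) did not pass the test. DDX43 was not silent in either line, at 47.4, 45.5 and 24.9 CPM in PANC1OR, against 35.1, 32.6 and 27.6 CPM in PANC1. SYCP3 was at 4.11, 4.43 and 1.98 CPM in PANC1OR, against 3.67, 2.40 and 3.00 CPM in PANC1.

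Imprinted genes differed in both directions. Of 30 listed, 23 were tested, 7 rose and 3 fell in PANC1OR, with a median log2 fold change of 0.44, against 10.3% of all tested genes called higher and 7.50% called lower. PLAGL1, a zinc finger growth suppressor, was at 2.80, 2.37 and 1.73 CPM in PANC1OR, against 52.7, 39.1 and 47.3 CPM in PANC1 (log2 fold change -4.31 ± 0.27, edgeR adjusted p = 5.33e-05). PEG10, a domesticated retrotransposon gene, was at 1226, 1114 and 1019 CPM in PANC1OR, against 221, 189 and 217 CPM in PANC1 (log2 fold change 2.42 ± 0.18, edgeR adjusted p = 9.30e-05). NAP1L5, of the nucleosome assembly protein family, was at 7.40, 8.31 and 5.12 CPM in PANC1OR, against 0.436, 0.627 and 0.734 CPM in PANC1 (log2 fold change 3.53 ± 0.34, edgeR adjusted p = 0.000303).

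The insulin-like growth factor gene IGF2 was at 8.48, 6.62 and 20.6 CPM in PANC1OR, against 1.18, 1.15 and 1.28 CPM in PANC1 (log2 fold change 3.28 ± 0.48, edgeR adjusted p = 0.00239). Its neighbour H19, a noncoding RNA expressed from the other parental copy in normal tissue, was also higher, at 31.8, 33.6 and 81.8 CPM in PANC1OR, against 8.47, 19.3 and 8.20 CPM in PANC1 (log2 fold change 2.04 ± 0.49, edgeR adjusted p = 0.0230). H19 lost the call without PANC1 replicate 1 (0.105) or 3 (0.112). For both genes PANC1OR replicate 3 was the highest library, and without it the log2 fold changes were 2.63 for IGF2 and 1.47 for H19, both called. With GC offsets they were 3.13 and 2.00, also called; the transcripts have 60.5% and 63.6% GC. PLAGL1, PEG10, NAP1L5, IGF2, PPP1R9A and KCNQ1OT1 were called in each of the 6 fits without 1 library, 6 of the 10 imprinted genes called. Which parental copy was read was not measured.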

How the data were processed

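The deposited table holds counts of reads per gene, not normalized, with GRCh38 as the build. Per the submitters' processing notes and their design text, the authors trimmed adaptors (cutadapt in Trim Galore 0.4.2), aligned reads with STAR 2.5 and counted them with featureCounts of Subread 1.6.2, from libraries made with a Kapa messenger RNA kit. The sources used here do not give the annotation release, the strand setting or the handling of reads with several alignments, so reads of overlapping or antisense genes cannot be told apart. The table has 5 further columns without values.

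From the deposited counts, genes were filtered with filterByExpr of edgeR 4.0.16 (R 4.3.3), libraries were scaled with TMM factors, and PANC1OR was compared with PANC1 by the quasi-likelihood F test over all 6 libraries, without covariates, in place of the likelihood ratio test of the series design text. P-values were adjusted by Benjamini-Hochberg over all 18751 tested genes and called under 0.05. Log2 fold changes are PANC1OR minus PANC1, with the SE from the F statistic. The common biological coefficient of variation was 0.281. The procedure was tested on simulated data. CPM use TMM-adjusted totals, and RPKM divide them by the union of exons. Positions (1-based), lengths and GC content come from GENCODE 44 on the same build, which held 58207 of the identifiers; promoter windows were read from the GRCh38 genome at Ensembl canonical starts. GC offsets are a loess curve (span 0.3) of log2 CPM deviations on GC content per library, over the 18638 tested genes with a value.

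From each list, up to 4 genes were named, those of smallest p-value that averaged 1 CPM or more. Others were added, their values known, to complete short counts. Some items that the rule names are not reported here. For DNMT3B, the 2 genes with the highest correlation were named. The 9 genes and the lists were chosen with earlier results of these data known. Alternatives were DESeq2 1.42.0, other size factors, no filter, the likelihood ratio test, leaving out each library, GC offsets, a replicate block and other gene lengths. The fits without both deviating libraries, and with GC offsets without PANC1OR replicate 3, and the canonical length were added after seeing the data. No pair of replicates agreed within sampling noise.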

Additional observations from a re-analysis of the deposited data

How the results depend on the processing

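DNMT3B kept its direction and call in all 16 alternative fits. Leaving out 1 library at a time gave 1821 to 8663 called genes, 1 to 4 of the 9 writers and erasers, and log2 fold changes of -0.38 to -0.01 for DNMT1, 0.30 to 0.61 for DNMT3A, 1.83 to 2.00 for DNMT3B, -0.22 to 0.02 for TET1, 0.12 to 0.41 for TET2, 0.21 to 0.43 for TET3, -0.42 to 0.04 for UHRF1, -0.40 to 0.07 for HELLS and -0.62 to -0.20 for TDG. TET1 (0.02) and HELLS (0.07) changed sign without PANC1OR replicate 3, and UHRF1 (0.04) without PANC1OR replicate 2, none of them called there. In these fits the lists had 0 to 10 called writer partners, 0 to 6 genes of the reader list, 4 to 12 of the TET list and 1 to 10 repair genes. They also had 1 to 9 methyl donor genes, 1 to 3 germline genes, 6 to 16 imprinted genes and 0 to 15 S phase genes. Each highest count came without PANC1OR replicate 3, where 44.1% of 19650 tested genes were called. Those counts held both directions in every list but the partners. Without PANC1 replicate 3, 1821 of 19570 tested genes were called. The ratio of DNMT3B to DNMT3A ranged from 0.968 to 1.06 in PANC1OR and 0.333 to 0.404 in PANC1, that of UHRF1 to DNMT1 from 0.705 to 0.748 in PANC1OR and 0.709 to 0.744 in PANC1, and that of the TET to the DNMT genes from 0.366 to 0.449 in PANC1OR and 0.334 to 0.402 in PANC1.

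GC offsets gave 7310 called genes, 3 of the 9 (DNMT3B, DNMT3A at 0.50 and TDG at -0.55), 9 writer partners, 5 reader list genes, 5 repair genes, 10 methyl donor genes and 11 S phase genes. With PANC1OR replicate 3 also left out they gave 8232 genes, the same 3 (DNMT3A 0.50, TDG -0.52), and 8, 5, 6, 11 and 12 genes of these lists, with 16 imprinted genes. Leaving out PANC1 replicate 2 and PANC1OR replicate 3 gave 11422 genes and 6 of the 9 (DNMT3B 1.75, DNMT1 -0.35, DNMT3A 0.35, TET2 0.31, UHRF1 -0.38, TDG -0.21). In the lists it gave 12 writer partners (11 lower and 1 higher), 8 reader list genes, 15 TET list genes and 10 repair genes. It also gave 12 methyl donor genes, 19 imprinted genes and 17 S phase genes. Both fits were added after seeing the data. GC offsets called 39.0% of all tested genes, and 41.9% with PANC1OR replicate 3 also left out. Leaving out both libraries called 58.5%. The list counts take both directions together. Without a filter 2 writer partners were called, among 4281 of 37580 genes. With upper-quartile factors 1 reader list gene and 5 S phase genes were called, among 3341 of 18751 genes. DNMT3B ranked 5 in PANC1OR by longest or canonical transcript. Why these values moved was not tested.

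Same-numbered libraries of the lines deviated with correlations of 0.44, -0.43 and -0.21. The highest correlation, 0.49, was between PANC1OR replicate 3 and PANC1 replicate 2, the libraries that deviated with GC content. These values cannot decide whether same-numbered libraries were handled together, because the deviations are taken from the mean of only 3 libraries per line. A fit with the replicate number as a block called 2324 of 18751 genes and the same 1 of the 9 (DNMT3B, 1.95). It called 1 writer partner, 0 reader list genes, 1 repair gene and 0 S phase genes. With GC offsets the block gave 6262 of 18751 genes and 3 of the 9 (DNMT3B, DNMT3A 0.50, TDG -0.55). In the lists it gave 5 reader list genes (4 higher, 1 lower), 10 methyl donor genes (3 higher, 7 lower) and 11 S phase genes (1 higher, 10 lower). Without the filter, 15 of the 20 germline genes were tested and 2 were called, among 4281 of 37580 genes.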
